A study of Homo sapiens with 46 samples.

Results

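The 10 genes described here, AXIN2, LGR5, ASCL2, NKD1, NOTUM, RNF43, ZNRF3, TCF7, SP5 and LEF1, are transcriptional targets of WNT/beta-catenin signalling, and most of their products feed back on the pathway. They were chosen by name from a table of RNA-seq counts for 62756 genes, of which 21484 were tested. All 10 were in the table and all 10 passed the filter on low counts. RNA came from DLD-1, an established human colorectal adenocarcinoma line with a mutant APC gene. Alongside the untagged parental cells there were 3 lines in which a lamin carries an auxin-inducible degron at its N terminus, namely lamin A/C (LAC), lamin B1 (LB1) or lamin B2 (LB2). A degron is a tag through which auxin sends the protein to the proteasome. Auxin was given at 1 mM in DMSO, and cells were taken at 0, 16 and 96 h, which gave 12 groups and 46 libraries: 10 groups of 4, with 3 libraries for LB1 at 0 h and for LB2 at 96 h. The untagged cells were included to list genes that respond to auxin itself. Each replicate was a well of a plate, so the p-values measure the spread between wells. The labels do not say whether a tagged line is a single clone, and there is 1 line per lamin, so a difference between lines at 0 h cannot be told apart from a difference between the cells from which each line was grown.

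WNT proteins bind Frizzled and LRP receptors and stop the destruction complex, built on APC and AXIN, from degrading beta-catenin, which then enters the nucleus and activates genes with TCF/LEF factors. In the intestine the pathway maintains the stem cells of the crypt base, where LGR5 and ASCL2 are marker genes. In APC-mutant colorectal cancer cells the destruction complex is impaired, beta-catenin accumulates and the target genes are transcribed without a need for WNT. The targets include inhibitors at each level: NOTUM acts on the ligand, RNF43 and ZNRF3 on the receptors, and AXIN2 and NKD1 in the cytoplasm.

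The libraries held 479446 to 37309421 counts, with a median of 11533218. Of the 6 libraries with under 5000000 counts, 5 were at 0 h. Replicate 1 of LAC at 0 h and replicate 1 of LB2 at 0 h stood apart from the other wells of their groups for several of the genes, and the results that rest on them are given with and without them. Across genes, the deviation of these libraries from the mean of all libraries correlated with the GC content of the gene (Spearman's rho 0.48 and 0.38, a description across genes), where the other wells had -0.14 to 0.31 in LAC and -0.21 to -0.07 in LB2. Replicate 2 of the parental line at 96 h had a rho of 0.39, where its other wells had -0.21 to 0.0011. That well was the highest of its group for ASCL2, SP5 and AXIN2. Replicate 3 of LB2 at 16 h was the least deep library, in which 3 counts equal 6.53 CPM (read counts relative to the library's total, scaled by the TMM method). Of 10 epithelial markers, 8 had a mean above 1 CPM, and their summed level was 5537 to 12580 CPM. GPA33 and LGALS4, also markers of intestinal epithelium, were below 1 CPM on average. Summed fibroblast markers did not exceed 6.47 CPM, leukocyte markers 0.927 CPM and endothelial markers 17.5 CPM. At 0 h the transcript of the tagged lamin was lower than in the parental line in each tagged line, by 0.77 for LMNA in LAC, 0.64 for LMNB1 in LB1 and 1.02 for LMNB2 in LB2 on the log2 scale. The wells overlapped those of the parental line for LMNA and LMNB2, and did not for LMNB1.

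Per length of exon, AXIN2 was the most abundant of the genes, with a mean of 98.8 RPKM (CPM per kilobase of exon) over all libraries, and it was above ASCL2, the next, in 46 of 46 libraries. ASCL2 averaged 30.5 RPKM, ZNRF3 18.1, LEF1 13.2, LGR5 9.20, RNF43 7.90, SP5 6.95, TCF7 3.93, NKD1 1.70 and NOTUM 0.315. The middle of this order was not fixed. ASCL2 exceeded ZNRF3 in 31 libraries, LEF1 exceeded LGR5 in 31 and LGR5 exceeded RNF43 in 28. TCF7 was above NKD1 in every library, and NKD1 above NOTUM in 45.

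Of the 10 genes, LEF1 was called most often when the auxin times were compared with 0 h. No group without auxin is labelled 16 or 96 h. From these labels auxin, its DMSO and time in culture cannot be told apart. A call means an adjusted p below 0.05 in edgeR's quasi-likelihood test over all 21484 genes. In the parental line 2 of the 10 genes were called at 16 h, ZNRF3 and LEF1, against 9.01% of all genes tested, and the same 2 at 96 h, against 7.78%. The 16 and 96 h comparisons of a line share its 0 h libraries. In bulk RNA, fewer cells with a transcript and less of it per cell cannot be told apart. In LAC, 1 gene was called at 16 h (LGR5; 1.78% of all genes) and 3 at 96 h (AXIN2, SP5 and LEF1; 15.4%). In LB1, 1 gene was called at 16 h (LGR5; 1.5%), while at 96 h 0 were called (3.17%) and 1 had an unadjusted p under 0.05. DESeq2 and limma voom called 0 there as well. In LB2, 1 gene was called at 16 h (LEF1; 1.81%) and 2 at 96 h (TCF7 and LEF1; 3.55%). In the parental line the median log2 change over all 10 was 0.35 at 16 h and 0.29 at 96 h, where all tested genes had medians of -0.04 and -0.03. There, 9 of the 10 changes were above 0 at 16 h and 10 at 96 h, called or not. Fitted on the compared groups only, the calls in LAC at both times, in LB2 at both times and for AXIN2 in the LAC response were lost (adjusted p 0.0611 to 0.722). In the tagged lines the members' median lay between -0.21 (LB1 at 96 h) and 0.25 (LB1 at 16 h).

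Differences between the lines before auxin made up 17 of the 31 calls. These comparisons are pairs among the same 0 h groups, so 1 line that differs can be counted in several of them. Against the parental line at 0 h, 1 gene was called in LAC (RNF43; 15.8% of all genes), 3 in LB1 (AXIN2, LGR5 and LEF1; 4.05%) and 1 in LB2 (LEF1; 8.21%). Between tagged lines at 0 h, 5 were called for LAC against LB1 (17.3%), 3 for LAC against LB2 (16.9%) and 4 for LB1 against LB2 (9.84%). On the compared groups alone, 0 were called for LB2 against the parental line, 2 for LAC against LB1 and 0 for LAC against LB2. ASCL2 and NKD1 were called in none of the 23 comparisons, which include the differences between lines in their responses.

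**Figure D1:**
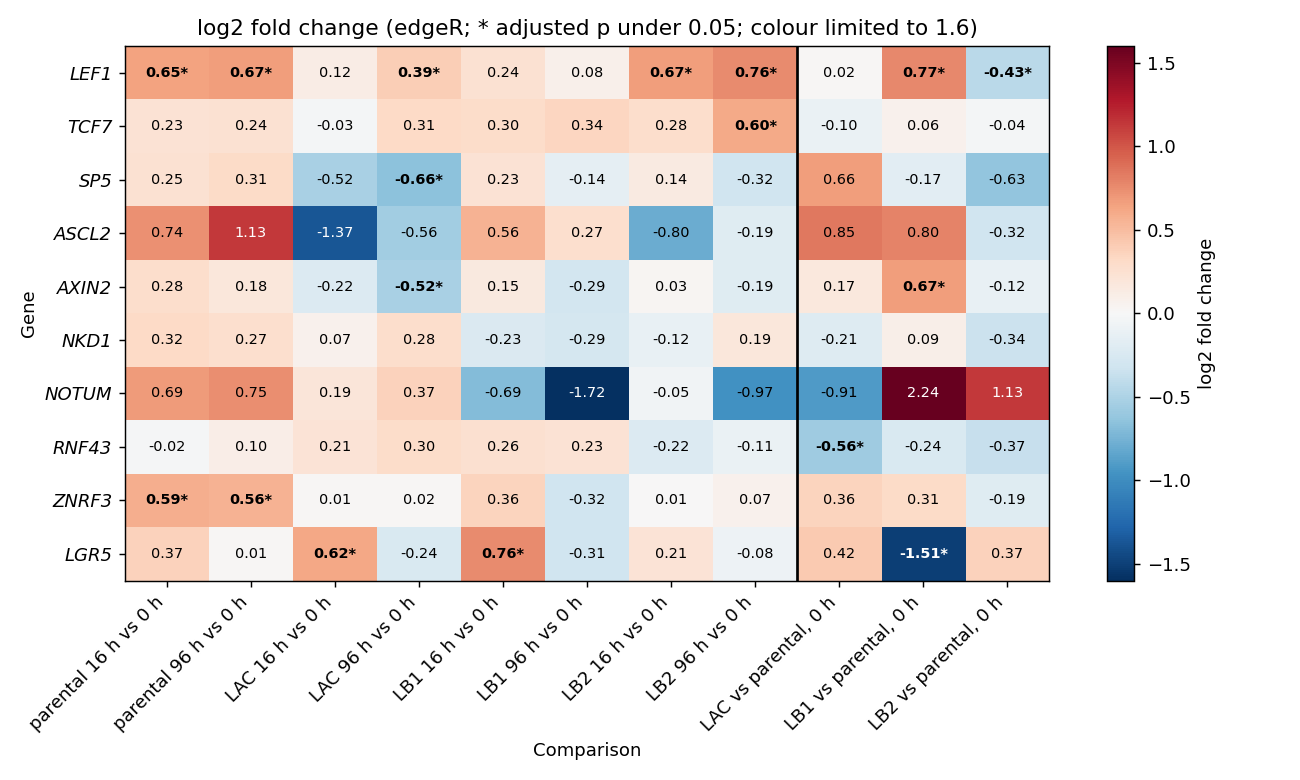
Log2 fold change of each gene (rows) in the 8 comparisons of auxin times with 0 h and the 3 comparisons of a tagged line with the parental line at 0 h (columns); a star and bold type mark an adjusted p under 0.05 and the colour scale is limited to 1.6. LEF1 carries 5 stars among the auxin comparisons, and the LGR5 value of -1.51 for LB1 at 0 h is the lowest with a star.

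LEF1 encodes a DNA-binding partner of beta-catenin and is itself a target of the pathway. It lies at chr4:108047545-108168956 on the minus strand (ENSG00000138795.10, GRCh38). In the parental line its level at 0 h was 45.6, 51.2, 50.04 and 65.2 CPM. At 16 h it was 84.2, 79.96, 83.2 and 82.8 CPM, and at 96 h 81.3, 87.7, 82.6 and 84.9 CPM. No 0 h library overlapped either treated group. LEF1 rose by 0.65 ± 0.13 (log2, SE) at 16 h (adjusted p = 0.000992) and by 0.67 ± 0.13 at 96 h (adjusted p = 0.000414), about 1.56-fold and 1.59-fold.

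In LB2, LEF1 was 34.4, 44.8, 41.7 and 33.1 CPM at 0 h. It was 67.6, 67.5, 30.5 and 64.2 CPM at 16 h and 62.5, 68.1 and 67.8 CPM at 96 h. The 30.5 CPM belongs to the least deep library. It lay below all 4 wells at 0 h, and the other 16 h wells lay above them. The change was 0.67 ± 0.13 at 16 h (adjusted p = 0.00277) and 0.76 ± 0.14 at 96 h (adjusted p = 0.00034). Fitted on the compared groups only, the adjusted p was 0.722 at 16 h and 0.0795 at 96 h, with changes of 0.57 and 0.77.

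LAC wells held 44.0, 56.3, 53.5 and 58.6 CPM of LEF1 at 0 h, 54.0, 62.9, 51.2 and 64.8 at 16 h, and 75.3, 67.9, 65.7 and 71.7 at 96 h. The 16 h wells overlapped those at 0 h (0.12, adjusted p = 0.63), while those at 96 h did not. The rise at 96 h was 0.39 ± 0.13 (adjusted p = 0.0266). It was 0.33 (adjusted p = 0.102) without replicate 1 of LAC at 0 h. The call was also lost without replicate 3 at 0 h or replicates 1 or 4 at 96 h, with adjusted p from 0.0527 to 0.0755.

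LB1 had the highest LEF1 level before auxin, 94.1, 87.6 and 87.6 CPM, above all 4 parental 0 h wells, by 0.77 ± 0.14 (adjusted p = 0.000111). It was then 98.5, 113, 111 and 102 CPM at 16 h and 92.2, 86.0, 93.9 and 109 CPM at 96 h, with changes of 0.24 and 0.08 that were not called. LEF1 at 0 h in LB1 exceeded LB2 by 1.20 ± 0.14 (adjusted p = 5.61e-09) and LAC by 0.75, with adjusted p = 6.28e-05. LB2 was below the parental line by 0.43 (adjusted p = 0.03), with no overlap of wells. That call was lost without replicates 2 or 4 of the parental group or replicates 1 or 4 of LB2, with adjusted p from 0.0809 to 0.169. It was also lost without the libraries under 5000000 counts, where the difference was -0.18 (adjusted p = 0.427), without the filter on low counts (-0.38, adjusted p = 0.31), without replicate 1 of LAC and LB2 (-0.36, adjusted p = 0.0506) and on the compared groups alone (-0.42, adjusted p = 0.183). LAC exceeded LB2 by 0.45 (adjusted p = 0.0117), which was 0.27 (adjusted p = 0.0605) after each library was corrected for its trend over GC content and length (the GC and length correction). In order of mean level at 0 h, LB1 (89.8 ± 3.74 CPM, SD, n = 3) stood above LAC (53.1 ± 6.40, n = 4) and the parental line (53.0 ± 8.51, n = 4), which did not differ beyond their spread, and LB2 was lowest (38.5 ± 5.64, n = 4).

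**Figure D2:**
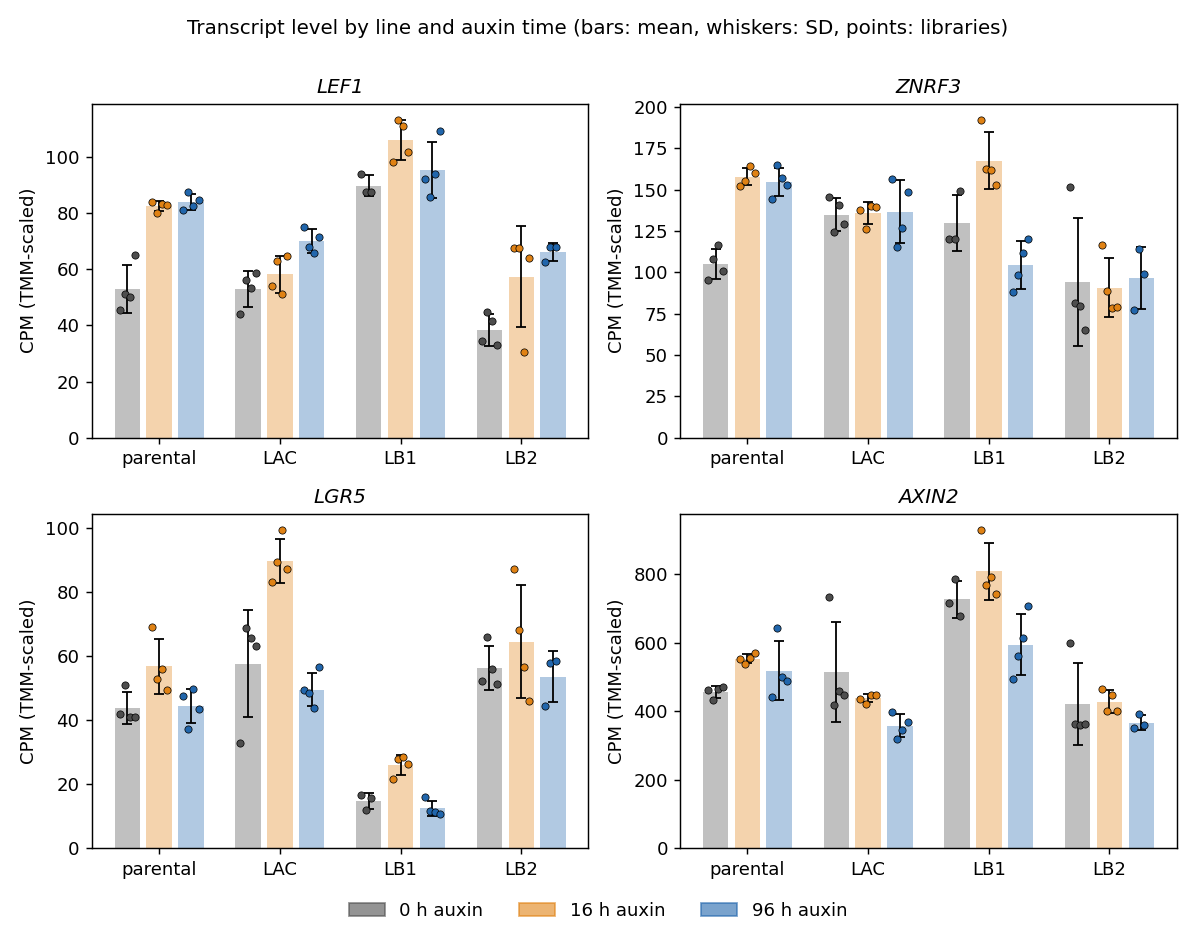
CPM of LEF1, ZNRF3, LGR5 and AXIN2 in each line (x axis) at 0, 16 and 96 h of auxin (colours); bars are group means, whiskers SD over 3 or 4 wells and points single libraries. Parental LEF1 and ZNRF3 are higher at 16 and 96 h in every well, LGR5 is lowest in LB1 at all times, and the lone high AXIN2 points at 0 h are replicate 1 of LAC (732 CPM) and of LB2 (599 CPM).

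TCF7, the second factor of the TCF/LEF family among the genes (chr5:134114681-134151865, plus strand, ENSG00000081059.20), was called once. Its level in LB2 was 29.9, 37.1, 36.4 and 32.9 CPM at 0 h and 42.0, 55.6 and 59.6 CPM at 96 h, without overlap. The rise was 0.60 ± 0.16 (adjusted p = 0.0251). Without replicate 2 or 3 of LB2 at 96 h the adjusted p was 0.106 and 0.197. In the other lines its changes at 96 h were 0.24 (parental), 0.31 (LAC) and 0.34 (LB1), none called. After the GC and length correction, the LAC value was 0.48 and was called (adjusted p = 0.00671). Group means of TCF7 ranged only from 32.3 CPM (LAC at 16 h) to 52.4 CPM (LB2 at 96 h). TCF7 overlaps SKP1 on the opposite strand, whose counts amounted to 81.3% of those of TCF7. The kit keeps the strand, but the counting setting is not given in the sources used here.

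SP5 encodes a zinc finger factor that WNT induces and that represses other WNT targets. It lies at chr2:170715337-170718078 on the plus strand (ENSG00000204335.4). Of the 4 genes with a RefSeq promoter window, it was the one whose annotated start in the count table coincided with it. That promoter is shown because beta-catenin acts through TCF/LEF motifs, here searched as CTTTGA and as its shorter core CTTTG, on both strands (the other-strand letters are TCAAAG and CAAAG). The 250 bases before the start, chr2:170715087-170715336 (GRCh38.p14, plus strand, RefSeq), read as follows, with each CTTTG or CAAAG in capitals.
SP5 promoter: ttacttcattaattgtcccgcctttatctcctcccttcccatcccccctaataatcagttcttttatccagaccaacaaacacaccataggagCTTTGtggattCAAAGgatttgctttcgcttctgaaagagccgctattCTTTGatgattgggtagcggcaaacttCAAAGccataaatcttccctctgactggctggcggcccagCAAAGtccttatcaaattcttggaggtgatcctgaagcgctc
The first capital letter of the 5 matches stands 157, 146, 109, 82 and 42 bases before the start, and 3 of the 5 are part of the longer CTTTGA or TCAAAG. Of 35116 windows of 250 bases before a start, 42.1% held at least 1 CTTTG or CAAAG and 0.0854% held at least 5, while 11.2% held at least 1 CTTTGA or TCAAAG and 0.0655% at least 3. The promoter table held windows for 4 of the 10 genes. LEF1 (1 window), RNF43 (2) and TCF7 (2) had 0 matches to the longer motif, and their windows held 0 to 2 matches to the shorter. The LEF1 window, 1 of RNF43 and 1 of TCF7 overlapped an exon of their own gene in the bases before the start, and that of SP5 did not.

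SP5 transcripts were 35.0, 15.7, 20.3 and 23.8 CPM in LAC at 0 h, with replicate 1 the highest. At 96 h they were 17.4, 11.7, 14.2 and 14.7 CPM, overlapping replicate 2 of the 0 h group. The decrease was -0.66 ± 0.23 (adjusted p = 0.0427). It was -0.44 (adjusted p = 0.248) without replicate 1 at 0 h, and the call was lost without replicate 4 at 0 h or replicates 2, 3 or 4 at 96 h (adjusted p 0.0745 to 0.143). SP5 is rich in GC (66.2%). Over all tested genes the LAC change at 96 h correlated with GC content (rho = -0.45), and after the GC and length correction the SP5 change was -0.12 (adjusted p = 0.713). Before auxin, LAC exceeded LB2 in SP5 by 1.29 ± 0.26 (adjusted p = 0.0003), or 1.35 (adjusted p = 2.33e-05) without replicate 1 of both groups. The wells of LB2 were 18.8, 8.78, 7.82 and 6.37 CPM, and replicate 1 overlapped LAC. LAC also exceeded LB1 by 0.84 (adjusted p = 0.0241), which was 0.41 (adjusted p = 0.136) after the GC and length correction. That call was lost without replicate 1 of LAC or any 1 of the 3 wells of LB1 (adjusted p 0.0583 to 0.114). LAC against the parental line at 0 h missed the threshold (0.66, adjusted p = 0.0511), and passed it without LAC replicate 2 (0.86, adjusted p = 0.0103), without parental replicate 3 (0.90, adjusted p = 0.0134) or with the replicate block (0.66, adjusted p = 0.0499). The difference of the LAC change at 96 h from the parental one, -0.97 (adjusted p = 0.0604), passed it without LAC 0 h replicate 2, LAC 96 h replicate 1, parental 0 h replicate 3 or parental 96 h replicate 1 (adjusted p 0.0161 to 0.0336). The 16 h change in LAC, -0.52 (adjusted p = 0.191), passed it without LAC 0 h replicate 2 (-0.67, adjusted p = 0.0486). SP5 in LB2 at 0 h was below the parental line by -0.85 (adjusted p = 0.00835) without replicate 1 of LAC and LB2, against -0.63 (adjusted p = 0.141) with all libraries, and LB1 exceeded LB2 by 0.71 (adjusted p = 0.0486), against 0.46 (adjusted p = 0.369).

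ASCL2 encodes a basic helix-loop-helix factor of intestinal stem cells (chr11:2268498-2270588, minus strand, ENSG00000183734.5), and at 69.2% it has the highest GC content of the 10 genes. Single wells stood far from the rest. Replicate 1 held 133 CPM in LAC at 0 h, where the other wells had 20.0, 35.3 and 46.5. Replicate 1 of LB2 at 0 h held 89.3 CPM, where the others had 12.9, 10.7 and 10.4. The changes with auxin were 0.74 and 1.13 in the parental line and -1.37 and -0.56 in LAC at 16 and 96 h, none called. Parental wells were 32.4, 21.2, 46.5 and 24.4 CPM at 0 h and 44.6, 111, 59.4 and 56.0 CPM at 96 h, overlapping in 1 well of each group. The 111 CPM belongs to replicate 2, whose deviation correlated with GC content (rho = 0.39). Without replicate 1 of LAC and of LB2 at 0 h, the parental rise at 96 h was 1.18 (adjusted p = 0.00328). No parental well was left out there, but all groups share an estimate of the spread in the fit. In the same fit the difference of ASCL2 at 0 h in LB2 from the parental line was -1.39 (adjusted p = 0.00336), where the fit with all libraries gave -0.32 (adjusted p = 0.776). The LAC value at 16 h was then -0.64 (adjusted p = 0.389) and at 96 h 0.17, the opposite sign to the fit with all libraries. Without replicate 2 of LAC at 0 h, which was the lowest well, the 16 h change was -1.65 (adjusted p = 0.00967), and DESeq2 gave -1.55 (adjusted p = 0.04) on all libraries. It then differed from the parental one by -2.43 at 16 h (adjusted p = 0.0407) and by -2.01 at 96 h (adjusted p = 0.0209), and LAC exceeded LB2 at 0 h by 1.52 (adjusted p = 0.0168), against 1.17 (adjusted p = 0.0876) with all libraries. Without LB2 replicate 1 that difference was 2.26 (adjusted p = 4.54e-05), and LB1 exceeded LB2 by 2.21 (adjusted p = 0.000216), against 1.12 (adjusted p = 0.182). With replicate 1 of both LAC and LB2 left out, the differences were 1.56 (adjusted p = 0.00085) and 2.20 (adjusted p = 7.49e-06). Fitted on the compared groups alone, the parental rises were 0.66 (adjusted p = 0.00911) and 1.09 (adjusted p = 0.00276), and LB1 at 0 h exceeded the parental line by 0.78 (adjusted p = 0.00363).

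AXIN2 encodes a scaffold of the destruction complex and is a widely used readout of the pathway (chr17:65528563-65561648, minus strand, ENSG00000168646.14). At 0 h it was 463, 431, 465 and 469 CPM in the parental line and 715, 784 and 678 CPM in LB1. Every LB1 well exceeded every parental well, by 0.67 ± 0.15 (adjusted p = 0.00373), or 1.59-fold. In LAC it was 732, 416, 458 and 448 CPM, and in LB2 599, 362, 359 and 362 CPM, so that in both groups replicate 1 alone was high. LB1 exceeded LB2 by 0.79 ± 0.15 (adjusted p = 0.000188) and was above LAC, where the LAC minus LB1 difference was -0.50 (adjusted p = 0.0164). Without replicate 1 of LAC and LB2 those differences were 0.99 (adjusted p = 4.44e-09) and -0.69 (adjusted p = 1.61e-05). The difference from LAC lost its call without LAC replicate 2, 3 or 4, each of which left replicate 1 in a group of 3 (adjusted p 0.054 to 0.0547). LAC exceeded LB2 by 0.29 (adjusted p = 0.167). That difference was called without LAC replicate 2 (0.40, adjusted p = 0.0447) or LB2 replicate 1 (0.51, adjusted p = 0.00324), and not without replicate 1 of both (0.31, adjusted p = 0.0558).

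With auxin, AXIN2 fell in LAC at 96 h, where it was 397, 320, 345 and 369 CPM and below every 0 h well. The change was -0.52 ± 0.14 (adjusted p = 0.00914). Without replicate 1 at 0 h it was -0.29 (adjusted p = 0.163). Parental AXIN2 was 551, 538, 554 and 569 CPM at 16 h and 442, 641, 501 and 489 CPM at 96 h, with changes of 0.28 (adjusted p = 0.214) and 0.18, not called. Without replicate 1 of LAC and LB2 at 0 h, the change at 16 h was 0.31 (adjusted p = 0.0268), in a fit that left out no parental well. All parental 16 h wells exceeded all 0 h wells, and the 96 h wells overlapped them. In LB1 AXIN2 was 928, 768, 791 and 742 CPM at 16 h and 494, 562, 613 and 705 CPM at 96 h, and its changes of 0.15 and -0.29 were not called. In LB2 the 96 h wells were 350, 390 and 359 CPM, a change of -0.19 that was not called.

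The change of AXIN2 in LAC at 96 h differed from that in the parental line by -0.70 ± 0.20 (adjusted p = 0.026). It was the 1 member called in that comparison, against 7.40% of all genes tested. After the GC and length correction the difference was -0.51 (adjusted p = 0.0562). It was -0.51 (adjusted p = 0.0641) without LAC 0 h replicate 1, and the call was also lost without parental 96 h replicate 2 or LAC 96 h replicate 2 or 3 (adjusted p 0.0554 to 0.0692). Leaving out replicate 1 of both LAC and LB2 at 0 h gave -0.53 (adjusted p = 0.0188). LB2 has no part in this comparison except through the estimate of the spread that all groups share in the fit.

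NKD1, which encodes a cytoplasmic protein that binds Dishevelled and dampens the pathway (chr16:50548396-50649249, plus strand, ENSG00000140807.7), varied over a 1.91-fold range. Its group means ran from 20.1 CPM (LB2 at 16 h) to 38.3 CPM (parental at 16 h), and it was not called in any comparison. Parental wells held 25.0, 34.8, 29.1 and 34.1 CPM at 0 h and 34.5, 40.0, 42.5 and 36.5 at 16 h, overlapping, with a change of 0.32 (adjusted p = 0.179). Replicate 1 of LB2 at 0 h held 38.3 CPM against 20.6 to 22.7 in the other wells. Without replicate 1 of both LAC and LB2, NKD1 at 0 h differed in LB2 from the parental line by -0.50 (adjusted p = 0.0171), against -0.34 (adjusted p = 0.216) with all libraries. LB1 exceeded LB2 by 0.61 (adjusted p = 0.00617) in that fit, against 0.43 (adjusted p = 0.121).

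NOTUM encodes a secreted enzyme that removes the lipid from WNT proteins. It lies at chr17:81952507-81961840 on the minus strand (ENSG00000185269.12). It was close to the floor: single libraries held 0 to 43 counts, and group means ran from 0.289 to 2.55 CPM. At 0 h, LB1 had the highest mean, with wells at 1.39, 3.32 and 2.95 CPM. The parental wells were 0.244, 0.330, 1.26 and 0.242 CPM, none as high as LB1, and the difference of 2.24 ± 0.76 was not called (adjusted p = 0.091). Without parental replicate 3 it was 3.02 (adjusted p = 0.0358). LAC wells at 0 h were 0.971, 0, 0.794 and 0.0754 CPM, from 0 to 5 counts each, below all LB1 wells. The fitted difference of LAC from LB1, -3.15 ± 0.82, was called (adjusted p = 0.00485). It rests on these few counts, and on the libraries of these groups alone the adjusted p was 0.0939. In LB2, replicate 1 held 4.99 CPM (9 counts) and the other wells 0.510 to 0.557. In LB1 the means were 2.55, 1.47 and 0.680 CPM at 0, 16 and 96 h, and the change of -1.72 at 96 h was not called (adjusted p = 0.183). On those groups alone it was -1.67 (adjusted p = 0.0458). LAC differed from LB2 by -2.04 (adjusted p = 0.0982), and by -2.63 and -3.08 without LAC replicate 1 or 3 (adjusted p = 0.041 and 0.0311). DESeq2 called it (-2.07, adjusted p = 0.0492). It was -1.65 (adjusted p = 0.195) without replicate 1 of both LAC and LB2. In that fit NOTUM in LB1 exceeded the parental line by 2.26 (adjusted p = 0.0292) and LB2 by 2.09 (adjusted p = 0.0354), where the difference from LB2 was 1.11 (adjusted p = 0.413) with all libraries, and LAC differed from LB1 by -3.74 (adjusted p = 0.000437). No well of LB1 or of the parental line was left out in it.

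**Figure D3:**
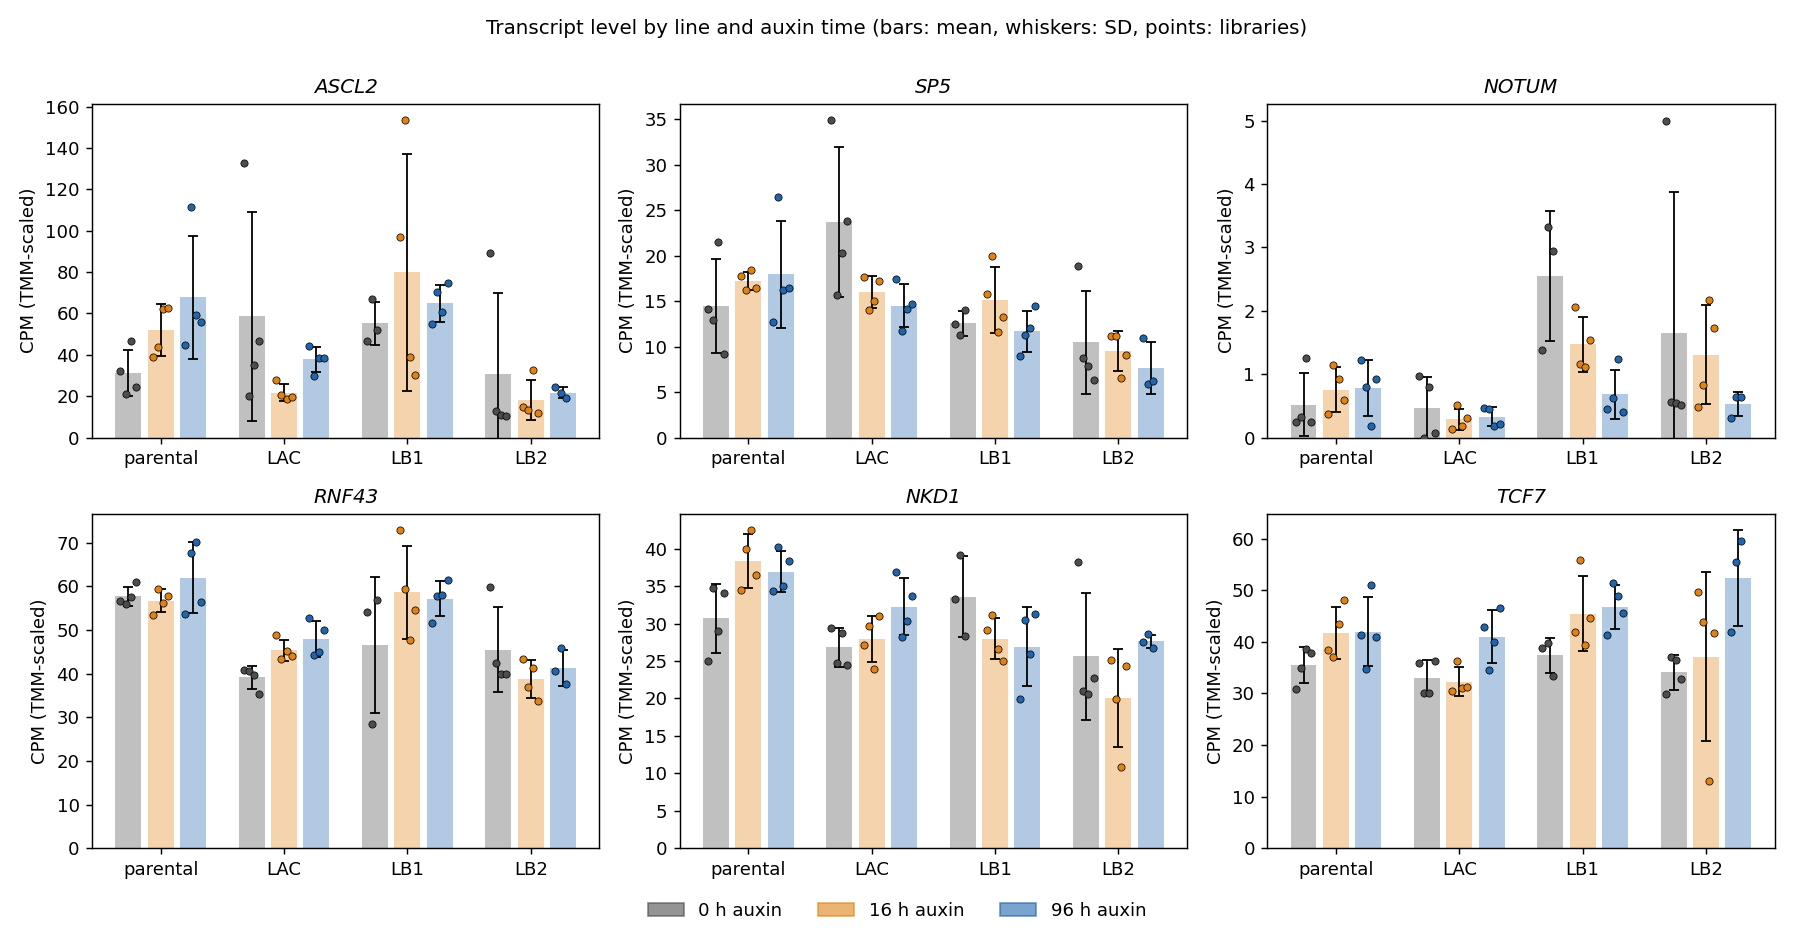
CPM of ASCL2, SP5, NOTUM, RNF43, NKD1 and TCF7 in each line (x axis) at 0, 16 and 96 h of auxin (colours); bars are group means, whiskers SD (drawn no lower than 0) and points single libraries. Replicate 1 is the leftmost point of a bar and stands apart in LAC and LB2 at 0 h for ASCL2 (133 and 89.3 CPM) and in LB2 at 0 h for NOTUM (4.99 CPM).

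RNF43 and ZNRF3 encode related membrane ubiquitin ligases that remove Frizzled receptors from the cell surface. RNF43 (chr17:58353676-58417595, minus strand, ENSG00000108375.13) was 56.5, 56.0, 57.6 and 60.9 CPM in the parental line at 0 h and 40.8, 40.6, 39.7 and 35.4 CPM in LAC. The groups did not overlap, and RNF43 was lower in LAC by -0.56 ± 0.14 (adjusted p = 0.00375), a ratio of 0.677. LAC wells were 48.8, 43.3, 45.1 and 44.1 CPM at 16 h and 52.8, 44.2, 44.9 and 49.9 CPM at 96 h, all below the parental 0 h wells. No change of RNF43 with auxin was called in any line, and those changes ran from -0.22 to 0.30. In LB2 at 0 h, wells were 59.9, 42.4, 39.8 and 40.0 CPM. The difference from the parental line was -0.37 (adjusted p = 0.0951), and -0.47 (adjusted p = 0.0125) without replicate 1 of LAC and LB2. In LB1 at 0 h, replicate 2, with 28.5 CPM, stood below the 54.1 and 57.0 of the others. The LAC difference from LB1 was -0.32 (adjusted p = 0.142), and -0.55 (adjusted p = 0.00703) without that well. TSPOAP1-AS1 overlaps RNF43 on the opposite strand with counts at 18.0% of those of RNF43.

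ZNRF3 (chr22:28883572-29057488, plus strand, ENSG00000183579.16) rose in the parental line from 95.2, 108, 116 and 101 CPM at 0 h to 152, 155, 164 and 160 CPM at 16 h. At 96 h it was 144, 165, 157 and 153 CPM. Neither treated group overlapped 0 h, and the rises were 0.59 ± 0.15 (adjusted p = 0.0115) and 0.56 ± 0.15 (adjusted p = 0.0164). Without parental 0 h replicate 4 the adjusted p at 96 h was 0.051. In LAC ZNRF3 was 145, 124, 141 and 129 CPM at 0 h, with changes of 0.01 and 0.02. In LB2, where replicate 1 at 0 h held 151 CPM and the other wells 81.3, 79.7 and 65.0, the changes were 0.01 and 0.07. None of these was called.

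In LB1, ZNRF3 was 120, 120 and 149 CPM at 0 h, 192, 163, 162 and 153 at 16 h and 87.8, 98.2, 112 and 120 at 96 h. The 16 h wells lay above all 0 h wells, and the 96 h wells reached at most the 2 lower 0 h wells. The changes, 0.36 and -0.32, were not called against 0 h. The change at 96 h differed from the parental one by -0.88 ± 0.22 (adjusted p = 0.0407), the 1 member called there, against 1.04% of all genes. The call was lost with RLE scaling (-0.78, adjusted p = 0.0509), with scaling by library size alone (-0.70, adjusted p = 0.0558) and with the replicate number as a block (-0.86, adjusted p = 0.0527). It was also lost without parental 0 h replicate 1 or 4, parental 96 h replicate 2, 3 or 4, LB1 0 h replicate 2 or 3, or LB1 96 h replicate 1 or 2 (adjusted p 0.0518 to 0.174). The ZNRF3 level of LB2 at 0 h differed from the parental line by -0.19 (adjusted p = 0.54), and by -0.45 (adjusted p = 0.0236) without LB2 replicate 1. At 0 h ZNRF3 was lower in LB2 than in LAC (0.55, adjusted p = 0.0109) and LB1 (0.50, adjusted p = 0.0467). These differences were 0.81 (adjusted p = 1.29e-05) and 0.78 (adjusted p = 3.29e-05) without replicate 1 of LAC and LB2, a fit in which LAC also exceeded the parental line in ZNRF3 (0.37, adjusted p = 0.0355, against 0.36, adjusted p = 0.108). The first lost its call without LB2 replicate 2, 3 or 4 (adjusted p 0.0538 to 0.0636). The second lost it without LB1 replicate 1 or 3 or LB2 replicate 2, 3 or 4 (adjusted p 0.072 to 0.286), and with the replicate block (adjusted p = 0.0536).

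LGR5, a receptor for R-spondins, which draw RNF43 and ZNRF3 away from Frizzled, marks crypt base stem cells. It lies at chr12:71439798-71586310 on the plus strand (ENSG00000139292.13). It separated LB1 from all other lines. At 0 h the LB1 wells held 16.7, 11.9 and 15.6 CPM, and the parental wells 41.9, 51.1, 41.1 and 41.1 CPM. The difference was -1.51 ± 0.20 (adjusted p = 3.17e-07), a ratio of 0.352, and was called in all 19 alternatives (-1.59 to -1.38). LAC wells held 33.0, 68.9, 65.8 and 63.1 CPM and LB2 wells 52.1, 65.9, 55.9 and 51.2 CPM. LGR5 was higher than in LB1 by 1.92 ± 0.20 in LAC (adjusted p = 3.83e-10) and by 1.88 ± 0.20 in LB2 (adjusted p = 7.15e-10). The highest LB1 well at any time, 28.5 CPM, was below the lowest well of every other line.

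LAC against the parental line was 0.42 (adjusted p = 0.0805), which became 0.61 (adjusted p = 0.00418) without LAC replicate 1 and 0.56 (adjusted p = 0.0363) without parental replicate 2. When replicate 1 of both LAC and LB2 was left out, LGR5 exceeded the parental line by 0.63 in LAC (adjusted p = 0.00162) and by 0.42 in LB2 (adjusted p = 0.0491), where the LB2 difference was 0.37 (adjusted p = 0.187) with all libraries.

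With auxin, LGR5 in LB1 rose to 21.5, 27.9, 28.5 and 26.2 CPM at 16 h, above all 0 h wells, by 0.76 ± 0.20 (adjusted p = 0.0358). At 96 h it was 15.9, 11.6, 11.4 and 10.8 CPM, overlapping 0 h (-0.31, not called). The 16 h call was lost with scaling by library size alone (0.65, adjusted p = 0.0651). It was lost as well without any 1 of the 3 wells at 0 h or without replicate 2 or 3 at 16 h (adjusted p 0.0639 to 0.142). In LAC, LGR5 was 83.2, 89.6, 99.3 and 87.1 CPM at 16 h, above all 0 h wells, by 0.62 ± 0.16 (adjusted p = 0.0354), and 49.3, 48.4, 43.9 and 56.5 CPM at 96 h. Replicate 1 at 0 h was the low well, and without it the 16 h change was 0.46 (adjusted p = 0.226). That call was lost without LAC 0 h replicate 3 or 4 or LAC 16 h replicate 2, 3 or 4 too (adjusted p 0.059 to 0.133), and after the GC and length correction (0.44, adjusted p = 0.0662). Parental wells held 69.2, 52.8, 55.9 and 49.6 CPM at 16 h, with a change of 0.37 (adjusted p = 0.147), or 0.41 (adjusted p = 0.0375) without replicate 1 of LAC and LB2 at 0 h. The latter fit left out no parental well. In that fit the LAC change at 96 h was -0.42 (adjusted p = 0.0498), against -0.24 (adjusted p = 0.337). In LB2 it was 87.3, 68.0, 56.6 and 46.1 CPM, with a change of 0.21, not called. LGR5 shares its region with TSPAN8 on the opposite strand, whose counts were 271% of those of LGR5.

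The lamin lines were compared with the parental line in their response to auxin for all 10 genes. At 16 h, 0 members were called for LAC (0.116% of all genes), LB1 (0.0279%) or LB2 (0.00465%), with 5, 2 and 2 members at an unadjusted p under 0.05 in edgeR. DESeq2 called 1 for LAC, LEF1 (-0.51, adjusted p = 0.0432), and 0 for the others, while limma voom called 3 for LAC and 0 for LB1 and LB2. At 96 h the calls were AXIN2 for LAC and ZNRF3 for LB1, as above. For LB2 it was 0 (0.368% of all genes), with 1 member at an unadjusted p under 0.05 and 0 calls by DESeq2 or limma voom. Among tagged lines at 96 h, 0 members differed in response for LAC against LB1 (1.01%), LAC against LB2 (0.489%) and LB1 against LB2 (0.121%), with 1, 0 and 1 at an unadjusted p under 0.05. DESeq2 called LEF1 for the last (-0.62, adjusted p = 0.0276), and limma voom called 1, 1 and 2. The LEF1 change at 96 h in LB1 minus the parental one was -0.59 (adjusted p = 0.097), which DESeq2 called (-0.50, adjusted p = 0.0474). With limma voom the genes called against the parental response were ASCL2, ZNRF3 and LEF1 for LAC at 16 h (-1.56, -0.55 and -0.59), AXIN2, ZNRF3, SP5 and LEF1 for LAC at 96 h, and ZNRF3 and LEF1 for LB1 at 96 h. Between tagged lines it called NKD1 (LAC against LB1), LEF1 (LAC against LB2), and ZNRF3 and LEF1 (LB1 against LB2). After the GC and length correction, edgeR called ZNRF3, NKD1 and LEF1 for LB1 at 96 h and NKD1 for LAC against LB1. The calls at 96 h without replicate 1 of LAC and LB2 at 0 h were AXIN2 and ZNRF3 for LAC and AXIN2, ZNRF3 and LEF1 for LB1. LB1 and the parental line lost no well in that fit.

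The transcripts of other parts of the pathway give the setting of these genes. In a list of 36 further genes described as WNT targets or as intestinal crypt genes, 30 were tested. In the parental line 7 rose and 2 fell at 16 h (30% of the list, against 9.01% of all genes), and 8 rose and 2 fell at 96 h (33.3% against 7.78%). The median change was 0.30 and 0.37. Genes of the list that fell with auxin are counted here and not named. EPHB2, a receptor that positions cells along the crypt, went from 20.3 ± 4.87 CPM (SD, n = 4) before auxin to 62.0 ± 4.70 CPM after 96 h, a rise of 1.63 (adjusted p = 1.22e-07). MYC, the growth-promoting transcription factor, was 71.4 ± 7.13 CPM at 0 h and 148 ± 14.6 at 96 h, a rise of 1.05 (adjusted p = 3.79e-08). CEMIP, a hyaluronan-binding protein, rose by 0.93 (adjusted p = 7.96e-05), and SLC12A2, an ion cotransporter, by 0.79 (adjusted p = 0.0014).

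In the tagged lines EPHB2 rose at 96 h in all 3, by 1.28 (LAC), 0.95 (LB1) and 1.32 (LB2). MYC rose in LB1 (0.83) and LB2 (0.94) and was not called in LAC (0.28, adjusted p = 0.103), where it was already 131 ± 13.1 CPM at 0 h. The MYC change in LAC differed from the parental one by -0.77 (adjusted p = 0.00443). CEMIP rose in LAC from 58.9 ± 8.69 to 227 ± 36.5 CPM at 96 h (1.96, adjusted p = 1.49e-12) and in LB2 from 34.7 ± 6.76 to 112 ± 10.3 CPM (1.70, adjusted p = 2.1e-09). In LB1 it was 403 ± 33.0 CPM at 0 h (n = 3) and 459 ± 69.4 at 96 h. Counts over the list at 96 h were 8 higher and 6 lower in LAC (46.7%, against 15.4% of all genes), or 10 and 3 after the GC and length correction. For LB1 they were 2 and 3 (16.7% against 3.17%), and for LB2 5 and 2 (23.3% against 3.55%). At 16 h the same counts were 4 and 0 in LAC (13.3% against 1.78%), 1 and 0 in LB1 (3.33% against 1.5%) and 6 and 0 in LB2 (20% against 1.81%). At 0 h, CEMIP was higher in LB1 than in the parental line (1.28, adjusted p = 1.68e-07) and lower in LAC (-1.50, adjusted p = 2.38e-09) and LB2 (-2.27, adjusted p = 2.02e-14).

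**Figure D4:**
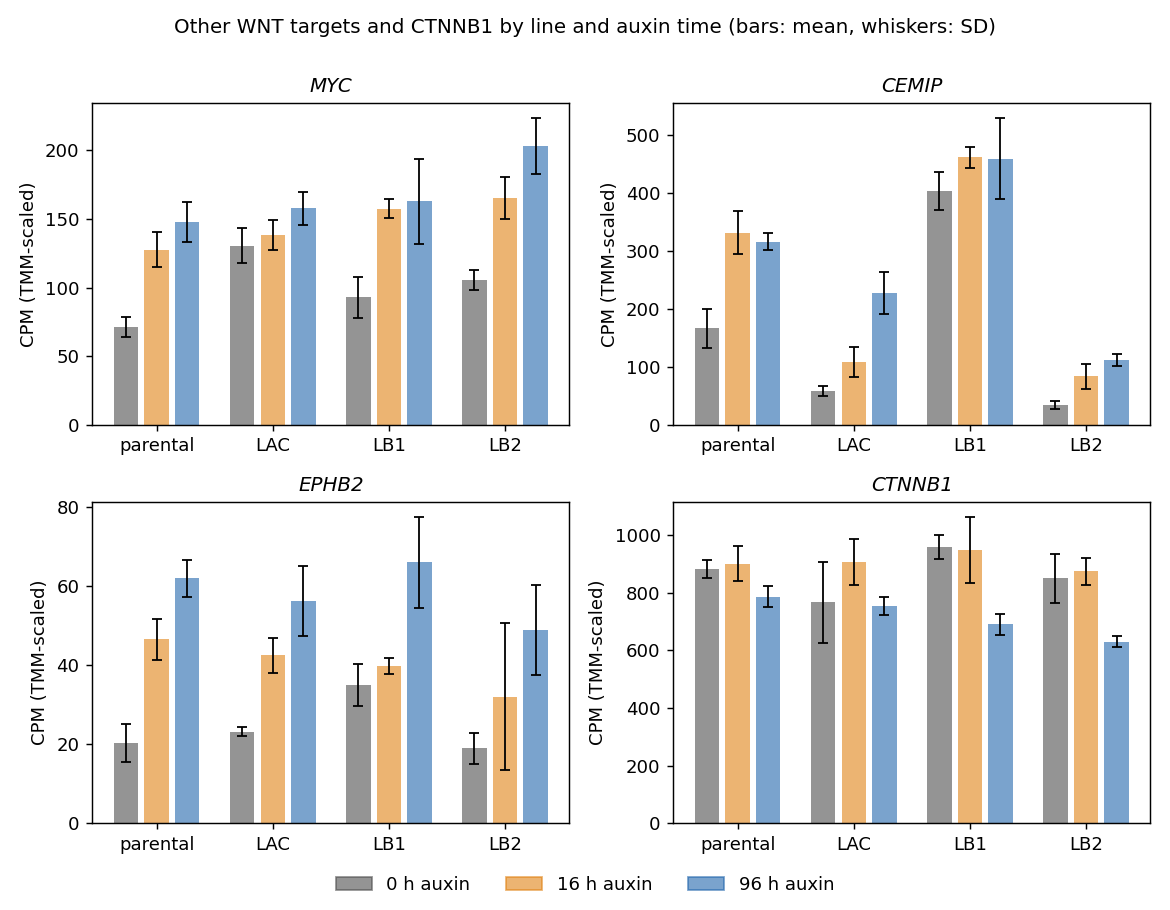
CPM of the WNT targets MYC, CEMIP and EPHB2 and of CTNNB1, which encodes beta-catenin, in each line (x axis) at 0, 16 and 96 h of auxin (colours); bars are group means and whiskers SD over 3 or 4 wells. EPHB2 is higher at 96 h than at 0 h in all 4 lines, MYC starts at 131 CPM in LAC against 71.4 in the parental line, and CTNNB1 is lower at 96 h in LB1 and LB2.

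CTNNB1 itself, the gene of beta-catenin, did not pass the test in the parental line or in LAC. It fell at 96 h in LB1 from 960 ± 42.4 CPM (n = 3) to 691 ± 35.8 (n = 4), by 0.48 (adjusted p = 0.0102), and in LB2 from 851 ± 85.5 (n = 4) to 631 ± 20.2 (n = 3), by 0.43 (adjusted p = 0.0244). The difference of these changes from the parental one was -0.31 (adjusted p = 0.317) and -0.27 (adjusted p = 0.485). Of 38 tested genes of beta-catenin turnover and transcription, 6 rose and 0 fell in the parental line at 16 h (15.8%, against 9.01% of all genes) and 3 rose and 0 fell at 96 h (7.89%, close to the 7.78% of all genes). AMER1, which helps place APC at the membrane, rose by 0.77 and 0.89. In LAC at 96 h 1 rose and 7 fell (21.1%, against 15.4% of all genes), including BCL9L, a coactivator of beta-catenin (-0.75, adjusted p = 0.00361), whose change was -0.36 (adjusted p = 0.0169) after the GC and length correction. The counts were then 1 higher and 5 lower. At 0 h LAC had 11 of the 38 higher than the parental line and 0 lower, while 15.8% of all genes were called, with BCL9L at 0.81 (adjusted p = 0.00163).

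Of 28 tested genes of signal reception, FZD3, a Frizzled receptor, rose in the parental line at 16 h (0.49) and 96 h (0.70) and in LAC at both times (0.67 and 1.14), the last with adjusted p = 3.04e-07. After the GC and length correction the LAC change at 16 h was 0.30 (adjusted p = 0.205). FZD2 fell in LB1 at 96 h (-1.08, adjusted p = 0.00754) and in LB2 (-1.04, adjusted p = 0.0129). In the list as a whole, 3 rose and 2 fell in the parental line at 16 h (17.9%, against 9.01% of all genes) and 2 and 0 at 96 h (7.14%, close to the 7.78% of all genes). At 96 h the tagged lines had 2 and 2 in LAC (14.3% against 15.4%), 0 and 3 in LB1 (10.7% against 3.17%) and 0 and 1 in LB2 (3.57% against 3.55%). LGR4, the relative of LGR5, was lower in LAC than in the parental line at 0 h by -1.03 (adjusted p = 0.000251). Among 13 tested genes of secreted and membrane inhibitors, at most 2 rose and 0 fell in any comparison of auxin times (15.4% of the list in the parental line at both times and in LAC at 96 h, where all genes had 9.01%, 7.78% and 15.4%), or 5 and 0 in LAC at 96 h after the GC and length correction. DACT1, a Dishevelled-binding inhibitor, rose at 96 h in the parental line (1.03), LAC (1.82) and LB2 (2.42) from means of 2.22, 0.782 and 0.169 CPM.

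Of 14 tested genes of intestinal differentiation, 2 rose and 0 fell in the parental line at 96 h, which is 14.3% of the list against 7.78% of all genes. The tagged lines had 3 and 0 in LAC (21.4% against 15.4%), 4 and 1 in LB1 (35.7% against 3.17%) and 4 and 0 in LB2 (28.6% against 3.55%). CDX2, an intestinal transcription factor, rose in the parental line from 88.7 ± 13.8 to 209 ± 25.7 CPM (1.24, adjusted p = 5e-09). KRT20, a keratin of differentiated enterocytes, rose at 96 h in LAC (0.54), LB1 (0.64) and LB2 (0.70). Tested against the parental change at 96 h, the list had 0 genes higher and 1 lower in LAC (7.14%, against 7.4% of all genes). It had 1 and 0 in LB1 (7.14% against 1.04%) and 0 and 0 in LB2 (0% against 0.368%). TFF3, a goblet cell peptide, was 9.38 ± 1.35 CPM at 0 h and 42.0 ± 10.2 at 96 h in LB1 (2.17, adjusted p = 7.4e-09).

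The pattern over the 12 group means was also compared among the 10 genes and with 14005 other genes (14006 for NOTUM), as a description of group means that share libraries and scaling. The closest pair among the 10 was ASCL2 and LEF1 (Pearson's r = 0.81), followed by ZNRF3 and SP5 (0.79). The group means of AXIN2 and LGR5 correlated negatively (-0.69), and LB1 was highest for the first and lowest for the second. Within the parental line, LB1 and LB2, however, both genes had their highest mean at 16 h. In LAC at 16 h the mean of AXIN2 was below that at 0 h and the mean of LGR5 above it. Replicate 1 of LAC at 0 h was the high well for AXIN2 (732 CPM) and the low well for LGR5 (33.0 CPM). The other 0 h wells of AXIN2, 416, 458 and 448 CPM, overlapped those at 16 h. Outside the set, LEF1 was most like HDAC4 (0.97), PTPRU (0.95) and CEMIP (0.95). ZNRF3 was most like COG8 (0.98), LGR5 like SAV1 (0.97) and NSUN2 (0.97), and AXIN2 like METRNL (0.96). For the others the best correlation was 0.95 for SP5 (TLNRD1) and NKD1 (SLC9A8), 0.93 for ASCL2 (CEP131), 0.92 for TCF7 (MUC20), 0.91 for NOTUM (NQO2) and 0.86 for RNF43 (SNHG3).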

How the data were processed

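The authors deposited a table of raw counts per gene for 46 libraries of stranded, ribosome-depleted total RNA. Per the file headers, the counts came from featureCounts 1.6.4 in an nf-core/rnaseq 1.4.2 environment. Per the submitters' processing notes, STAR 2.7.10a, SAMtools 1.10, deepTools 3.4.5, DESeq2 1.40.2 and GRCh38 were also used. The strand setting and annotation release are not given in the sources used here. A row split across 3 lines was not used. The gene lengths in the table, as deposited, served for RPKM.

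Genes were filtered with filterByExpr, scaled by TMM and tested with edgeR 4.0.16 (quasi-likelihood, two-sided, R 4.3.3) in a single fit with 1 coefficient per group. Benjamini-Hochberg adjustment ran over all 21484 tested genes in each of 23 comparisons, and adjusted p under 0.05 was a call. The script was tested on simulated data. Alternatives were RLE and library-size scaling, no filter, DESeq2 1.42.0, limma 3.58.1 voom, the compared groups alone, a GC and length trend removed, a replicate block, no library under 5000000 counts, each library left out, and, chosen after seeing the data, no replicate 1 of LAC and LB2 at 0 h, with and without the GC correction. All groups share an estimate of the spread, so leaving out those wells can change calls between groups that lost no well. GC content was that of the longest GENCODE 29 transcript of each gene and covered 95.2% of tested genes.

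Replicate numbers come from the labels, which do not say that they mark a shared day. Deviations of same-numbered wells correlated above 0.1 in every pair for LAC at 16 h against 0 h (0.124 to 0.691) and for LAC against LB2 at 0 h (0.374 to 0.845), over 8568 genes. The rule for naming genes from the pathway lists was CTNNB1 and up to 4 called genes with the lowest adjusted p per comparison. The text names only part of the genes under this rule. Pattern likeness was computed over group means of log2 CPM. The genes, lists and rules were chosen with earlier results of these data known.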

Additional observations from a re-analysis of the deposited data

Results flagged for a closer look

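The 10 genes in the 10 groups of 4 wells gave 100 sets, of which 16 held a well that stood apart by Dixon's criterion at 95%. Chance gives about 1 in 20, or 5, but the genes share the same libraries, so the sets are not independent. Replicate 1 of LB2 at 0 h accounted for 5 of the 16, all high: 599 CPM for AXIN2, 89.3 for ASCL2, 38.3 for NKD1, 4.99 for NOTUM and 59.9 for RNF43. Replicate 1 of LAC at 0 h was high for AXIN2 (732 CPM) and low for LGR5 (33.0 CPM). Both libraries had under 5000000 counts and a correlation of their deviations with GC content, and the part of these in the values was not tested.

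In the parental line at 0 h, replicate 2 was low for AXIN2 (431 CPM) and high for LGR5 (51.1 CPM), and replicate 3 was high for NOTUM (1.26 CPM). In LAC at 16 h, replicate 1 was high for ASCL2 (27.7 CPM), and replicate 2 was low for ZNRF3 (126 CPM) and high for TCF7 (36.4 CPM). The least deep library, replicate 3 of LB2 at 16 h, was high for ASCL2 (32.6 CPM) and low for LEF1 (30.5 CPM). In LB1 at 96 h, replicate 1 was high for LGR5 (15.9 CPM).

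In 2 cases a change with auxin differed between a tagged line and the parental line by a test of the difference itself: AXIN2 in LAC at 96 h (-0.70 on the log2 scale) and ZNRF3 in LB1 at 96 h (-0.88).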

How the results depend on the processing

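Of the 31 calls on the 10 genes, 12 were kept in all alternatives run and 0 reversed. Over all alternatives, 506 of 620 values kept their call and 114 lost it. Of 519 recounts of called members, 384 stayed within 1.5 times. In the other recounts, with the main count first, the numbers called were as follows. With limma voom they went from 2 to 5 for the parental line at 16 h, 1 to 3 and 3 to 6 for LAC at 16 and 96 h, 0 to 3 and 1 to 4 for the LAC response against the parental one at 16 and 96 h, 1 to 2 for that of LB1 at 96 h, 1 to 4 and 1 to 7 for LAC and LB2 against the parental line at 0 h, 3 to 6 and 4 to 8 for LAC and LB1 against LB2, and from 0 to 1, 1 and 2 for the responses of LAC against LB1, LAC against LB2 and LB1 against LB2. DESeq2 gave 2 for LAC at 16 h, 1 for the LAC response at 16 h, 2 for the LB1 response at 96 h, 2 for LB2 at 0 h and 1 for LB1 against LB2 in response.

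Without replicate 1 of LAC and LB2 at 0 h the counts were 4 (parental, 16 h), 0 and 1 (LAC, 16 and 96 h), 2 and 3 (LAC and LB1 responses at 96 h), 3 and 6 (LAC and LB2 at 0 h) and 8 (LB1 against LB2). With the GC and length trend removed too, they were 4 (parental, 16 h), 0 and 5 (LAC), 2 (LB1, 96 h), 2 and 0 (LAC response), 3 (LB1 response at 96 h), 2, 6 and 5 (LAC, LB1 and LB2 at 0 h), 5 (LAC against LB2), and 2 and 2 (LB1 response against LAC and LB2). With only that trend removed they were 0 (LAC, 16 h), 0 and 3 (LAC and LB1 responses, 96 h), 2, 5 and 3 (the lines at 0 h) and 1 (LAC against LB1 response), and 42 calls were made in all, of which 26 were among the 31. That correction with the replicate block gave 0 (LAC, 16 h), 1 and 0 (LAC response), 3 (LB1 response, 96 h), 2, 5 and 3 (0 h), 5 (LAC against LB2), and 1 and 1 (LAC against LB1 and LB1 against LB2 in response).

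Without the low-count filter they were 2 and 1 (LAC, 16 and 96 h), 1 and 2 (LAC response), 1 and 1 (LB2 response) and 3, 5 and 0 (the lines at 0 h). Without libraries under 5000000 counts they were 0 and 1 (LAC), 1 and 2 (LAC response), 2 (LB1 response, 96 h), and 2 and 4 (LAC and LB2 at 0 h). On the compared groups alone they were 0 and 0 (LAC), 1 (LB1, 96 h), 0 and 0 (LB2), 0 and 2 (LAC and LB1 responses, 96 h), 5 and 0 (LB1 and LB2 at 0 h), and 2 and 0 (LAC against LB1 and LB2). Scaling by library size alone gave 0 for LB1 at 16 h, 0 for the LAC and LB1 responses at 96 h and 2 for LB2 at 0 h, and moved the median of all genes by over 0.1 in 9 comparisons. RLE scaling gave 0 for the LB1 response at 96 h. The replicate block gave 0 for the LB1 response at 96 h and 2 for LAC at 0 h, and otherwise ended only the call of ZNRF3 between LB1 and LB2.

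Leaving out each library in turn gave 2 to 2 and 1 to 2 calls in the parental line at 16 and 96 h, 0 to 3 and 0 to 3 in LAC, 0 to 1 and 0 to 0 in LB1, and 1 to 1 and 1 to 2 in LB2. It gave 0 to 1 and 0 to 3 for the LAC response, 0 to 0 and 0 to 1 for that of LB1, and 0 to 0 for LB2 and among the tagged lines. At 0 h it gave 1 to 2, 3 to 4 and 0 to 5 for LAC, LB1 and LB2 against the parental line, 4 to 5 and 2 to 5 for LAC against LB1 and LB2, and 3 to 6 for LB1 against LB2. The causes were not tested. NOTUM had 0 to 43 counts in single libraries, which limits its precision.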
